A study of Rattus norvegicus with 7 samples.

Results

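A set of 10 genes that mark astrocytes and their embryonic forerunners, the radial glia, was followed in cells of the fetal rat spinal cord, cultured and put under cyclic tensile stress. The genes were Gfap, Vim, Nes, Aqp4, S100b, Slc1a2, Slc1a3, Fabp7, Glul and Aldoc, and every probe set whose annotation gives 1 of these symbols and no other was taken. That gave 17 probe sets of the 31042 on the array that are not controls, and 10 of the 14217 genes that the annotation names by 1 symbol. Gfap, Vim, Nes, S100b, Fabp7 and Aldoc had 1 probe set each, Slc1a2 had 2, and Aqp4, Slc1a3 and Glul had 3 each.

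The cells came from E15 Sprague-Dawley rats, whose embryonic cords were freed of ganglia and meninges, and were grown on flexible collagen-coated wells. Cultures were collected at 0 hours, after 2, 6, 12 and 24 hours, and after 48 and 72 hours of a 10% strain at 0.5 Hz, with no genetic change and no drug in any group, and signals are given in this order of time. The RNA of 5 animals was pooled at each time for 1 Affymetrix rat array, so that each group is 1 array and there is no replicate. The 0 hour array is the only unloaded culture analysed here, and strain and time in culture cannot be told apart. The methods describe a culture rich in neurons that also holds other cells, and a strain that is largest at the rim of each well. In such bulk RNA fewer cells of a type and less RNA per cell cannot be told apart.

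Radial glia span the wall of the embryonic neural tube, divide to give neurons and, later in gestation, turn into astrocytes. They carry the intermediate filament proteins vimentin and nestin, the fatty acid binding protein Fabp7 and the glutamate transporter Slc1a3, and astrocytes add Gfap, the water channel Aqp4 and the transporter Slc1a2 as they mature. Astrocytes take glutamate up from the space around neurons and turn it into glutamine with glutamine synthetase, the product of Glul.

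The signal of 15 of the 17 probe sets averaged at least 100 over the arrays, the limit set for testing, which 17709 probe sets of the array passed. Both Slc1a2 probe sets lay under it. Of the astrocyte and progenitor genes used to check the label, Gja1, the main gap junction protein of astrocytes, had signals of 15869, 15546, 13047, 16250.4, 17371, 15959 and 17045 in order of time. Sox2, a transcription factor of neural progenitors, had 1552, 1513, 1286, 1819, 1637, 1790.4 and 2074. Aldh1l1, a further astrocyte gene, was dimmer and lowest at 48 and 72 hours, with 256, 125, 145, 165, 207, 107 and 98.2. Sox9, also meant as a check, was not matched to a probe set. Kcnj10, a potassium channel of mature astrocytes, stayed between 3.05 and 39.6 on all arrays. Of the wider lists, 7 of 27 matched astrocyte genes and 5 of 22 radial glia and progenitor genes averaged under 100, among them Slc6a11 (18.7), Dio2 (8.26) and Itih3 (7.79), and Sox1 (15.6), Sox3 (28.1) and Hes5 (37.3). The label thus held for part of these genes, with Slc1a2 among those near the floor of the array.

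The 4 genes whose signals at 6 hours lay furthest below those at 2 and 12 hours were Aqp4, Fabp7, S100b and Gfap, and their promoters are shown for that reason. Each window runs from 250 bases before to 50 bases after the RefSeq start on the GRCr8 assembly, on the strand of the gene. The search was for TATAAA (the TATA box), TTCNNNGAA (STAT), TGANTCA (AP-1) and CCAAT (the CCAAT box) on both strands, no matches overlapped, and capitals mark a match. The windows are Gfap at chr10:88361612-88361911 (minus strand), Fabp7 at chr20:37669356-37669655 (plus), S100b at chr20:12381032-12381331 (minus) and Aqp4 at chr18:6798793-6799092 (minus, the more upstream of its 2 starts).
Gfap: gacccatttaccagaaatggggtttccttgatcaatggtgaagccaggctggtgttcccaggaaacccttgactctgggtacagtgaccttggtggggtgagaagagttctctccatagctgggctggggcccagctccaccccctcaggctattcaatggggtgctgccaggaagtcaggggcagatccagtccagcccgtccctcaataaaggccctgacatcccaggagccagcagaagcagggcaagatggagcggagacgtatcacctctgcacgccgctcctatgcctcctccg
Fabp7: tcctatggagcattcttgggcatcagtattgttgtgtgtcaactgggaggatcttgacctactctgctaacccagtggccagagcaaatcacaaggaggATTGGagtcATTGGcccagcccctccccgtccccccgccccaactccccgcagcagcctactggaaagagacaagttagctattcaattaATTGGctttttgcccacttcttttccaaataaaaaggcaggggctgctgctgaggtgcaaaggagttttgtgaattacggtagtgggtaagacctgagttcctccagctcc
S100b: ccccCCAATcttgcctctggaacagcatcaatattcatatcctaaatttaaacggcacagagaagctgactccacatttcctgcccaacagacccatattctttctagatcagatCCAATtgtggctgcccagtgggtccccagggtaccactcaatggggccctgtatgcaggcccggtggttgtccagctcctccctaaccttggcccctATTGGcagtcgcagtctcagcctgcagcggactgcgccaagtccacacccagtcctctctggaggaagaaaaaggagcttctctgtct
Aqp4: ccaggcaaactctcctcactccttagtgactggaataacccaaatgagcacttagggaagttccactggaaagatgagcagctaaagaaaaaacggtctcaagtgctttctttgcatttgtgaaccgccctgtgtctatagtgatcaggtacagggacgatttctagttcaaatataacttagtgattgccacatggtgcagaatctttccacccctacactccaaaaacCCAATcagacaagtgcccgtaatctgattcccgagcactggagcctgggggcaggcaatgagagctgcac

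The Gfap window held none of the 4 motifs, the Fabp7 and S100b windows held 3 CCAAT matches each, and the Aqp4 window held 1. Of the 15 windows of all 10 genes, 6 held CCAAT, and these belonged to 5 genes (Vim, Aqp4, S100b, Fabp7 and Glul). TATAAA was found in 1 window, that of Vim, and the STAT and AP-1 letters in none. Among all 33469 RefSeq promoter windows of this length, 37.5% held CCAAT, 14.2% TATAAA, 8.87% TTCNNNGAA and 7.33% TGANTCA. A match is a run of letters and no evidence of binding.

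Nes was the only marker whose signal passed the test for a linear change with hours, and it fell. This test fits a line over hours to log2(signal + 32) with limma and gives the change per 72 hours, with p-values adjusted over all 17709 probe sets. Of the 15 probe sets tested, 0 rose and 1 fell at an adjusted p of 0.05, where 15.0% and 14.1% of all tested probe sets did so. The number that fell became 3 when the 0 hour array was left out and 2 when that of 6 hours was, and the difference from the share over the array was not tested. A limma test for a smooth curve in log2 time found a change in 5 of the 15 (Vim, Nes, Aldoc and 2 of the 3 Glul probe sets), against 39.5% of all probe sets. That count is not firm, since it was 1 (Nes) when dim probe sets were kept in the test and 1 to 4 when single arrays were left out, with Nes alone left without the 72 hour array. With 5 and 4 residual degrees of freedom the error in both tests is the scatter of single arrays round the fit and not the spread between cultures.

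By the rule of size in the study's methods, a ratio to 0 hours of at least 2 or at most 0.5 with a difference of at least 200, none of the 17 probe sets was higher at any time and 1 was lower (1368981_at of Aqp4, at 6 hours). Of all probe sets of the array, 3.32% were higher and 4.65% lower at 1 or more times by this rule, and 1.22% were lower at 6 hours. A call of higher was out of reach for Vim, whose 0 hour signal of 22170.2 was too near the highest on any array, 32428.6.

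**Figure D1:**
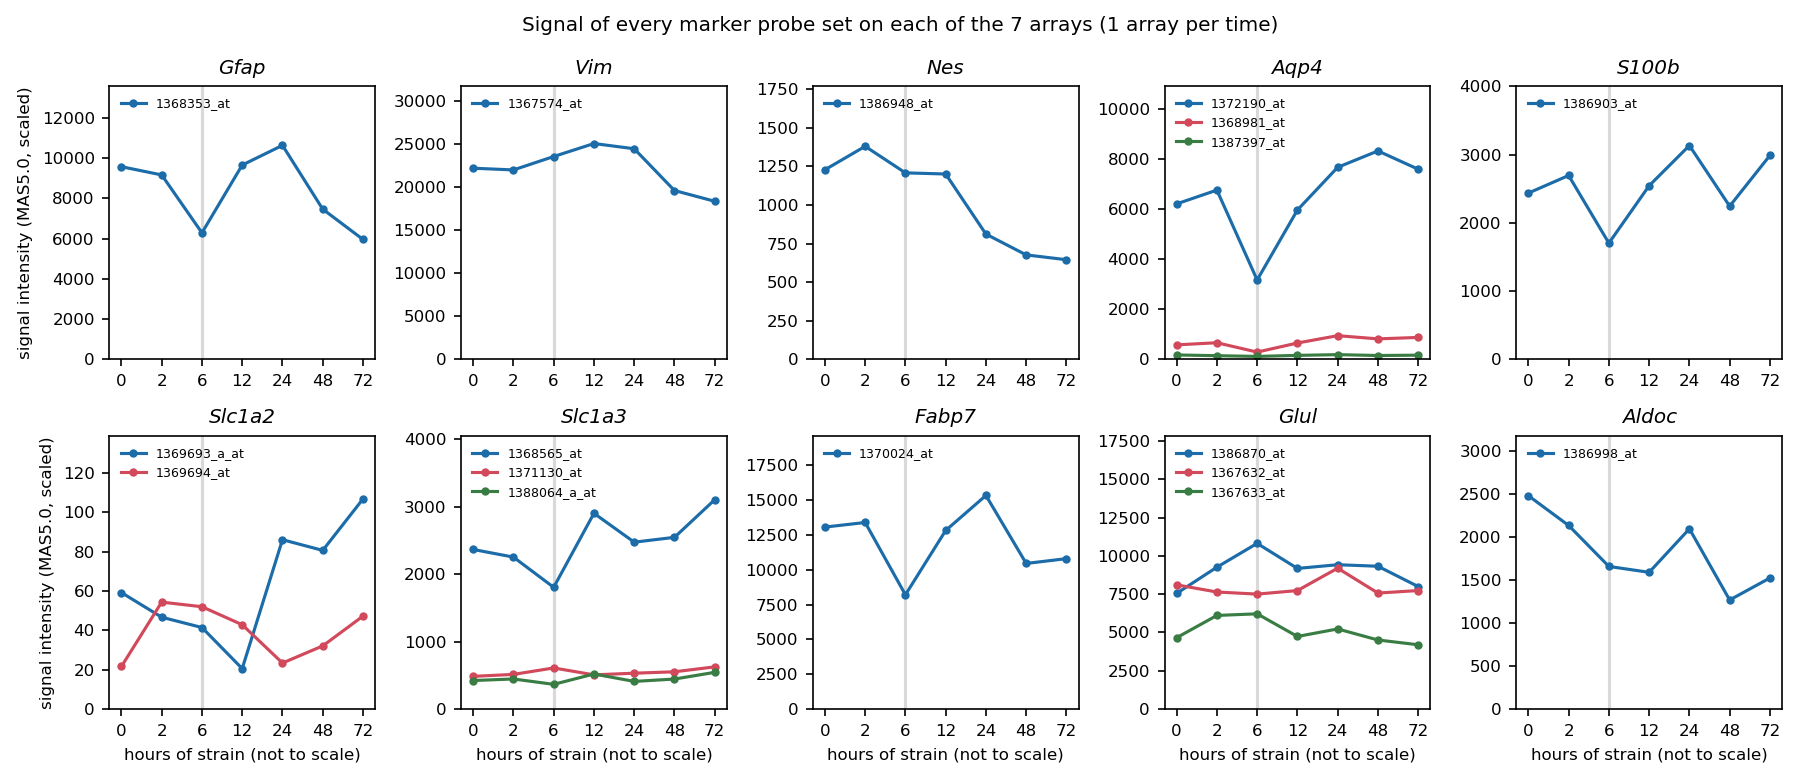
Signal intensity (linear, scaled by the authors) of the 17 probe sets of the 10 marker genes on the 7 arrays, with hours of strain in order but not to scale on the x axis and a separate y axis starting at 0 for each gene. The gray line marks 6 hours, where Gfap, Aqp4, S100b, Fabp7 and 2 of the 3 Slc1a3 probe sets lie below their neighbours, while Nes steps down between 12 and 24 hours.

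Of the 3 intermediate filament genes, Nes fell by the line over hours, Vim changed by the smooth test, and Gfap was called by neither. Nestin, the filament protein of dividing neural progenitors, is encoded by Nes, and its probe set 1386948_at gave signals of 1228, 1380.0, 1208, 1201, 811, 676 and 645 from 0 to 72 hours. The largest drop between neighbouring arrays came between 12 and 24 hours, a step named after the values were seen. The signal at 72 hours was 0.525 of that at 0 hours, and the fitted change was -1.10 per 72 hours on the log2 scale (SE 0.18, 95% interval -1.49 to -0.70, limma adjusted p = 0.00206). Nes kept its call in all 17 alternative settings, with values of -1.48 to -1.02 and adjusted p of 0.00163 to 0.0268.

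Vimentin, the filament protein shared by radial glia, immature astrocytes and cells of mesenchymal origin, is encoded by Vim. Probe set 1367574_at had signals of 22170.2, 21968, 23525, 25032, 24426, 19579.8 and 18331 over the same times. It was highest at 12 and 24 hours and lowest at 48 and 72 hours, and the smooth test called this curve (adjusted p = 0.0493), while the line over hours gave -0.34 (SE 0.12) at a limma adjusted p of 0.06. The line passed the test in 2 of 17 alternatives, without the 0 hour array (-0.39, adjusted p = 0.039) and after quantile normalization (-0.31, adjusted p = 0.0281). In the others the limma adjusted p reached 0.449. The smooth call was lost with no filter on signal and without the 6, 12, 48 or 72 hour array.

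Gfap encodes the filament protein by which astrocytes are usually identified. Its probe set 1368353_at gave 9579, 9169, 6288.5, 9661, 10640.5, 7466 and 5960.2 over the 7 times. Low values came at 6 hours and again at 72 hours, with the highest array at 24 hours between them. The 72 hour signal was 0.560 of that at 24 hours, a log2 difference of -0.83. These are the lowest and highest arrays of Gfap, so this is the largest difference of its course and only a description. Neither test called Gfap (line -0.49, SE 0.24, adjusted p = 0.154, and smooth adjusted p = 0.39). Without the 6 hour array the line became steeper and passed (-0.67, adjusted p = 0.0159), and without the 72 hour array it shrank to -0.17 (adjusted p = 0.804).

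The changes of these 3 genes were set against each other by the slope of their difference, which needs no comparison of levels between probe sets, with an exact permutation test over all 5040 orders of the 7 arrays. Vim minus Nes gave 0.76 per 72 hours on the log2 scale (SE 0.26, 95% interval 0.09 to 1.42), with a two-sided exact p of 0.0294 that became 0.147 after adjustment over the 5 pairs tested. The difference in change from 0 hours between Vim and Nes was 0.62 at 72 hours. Gfap minus Nes gave 0.60 (95% interval -0.53 to 1.74, exact p = 0.233, adjusted 0.388) and Gfap minus Vim -0.15 (-0.91 to 0.61, exact p = 0.647, also 0.647 after adjustment). Without the 72 hour array Gfap minus Nes became 1.31 and Vim minus Nes 1.23, and Gfap minus Vim changed sign to 0.0824. Without the 6 hour array Gfap minus Vim was -0.34. No pair passed in any of these, and the intervals over all 7 arrays allow sizeable differences in either direction for both pairs with Gfap.

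**Figure D2:**
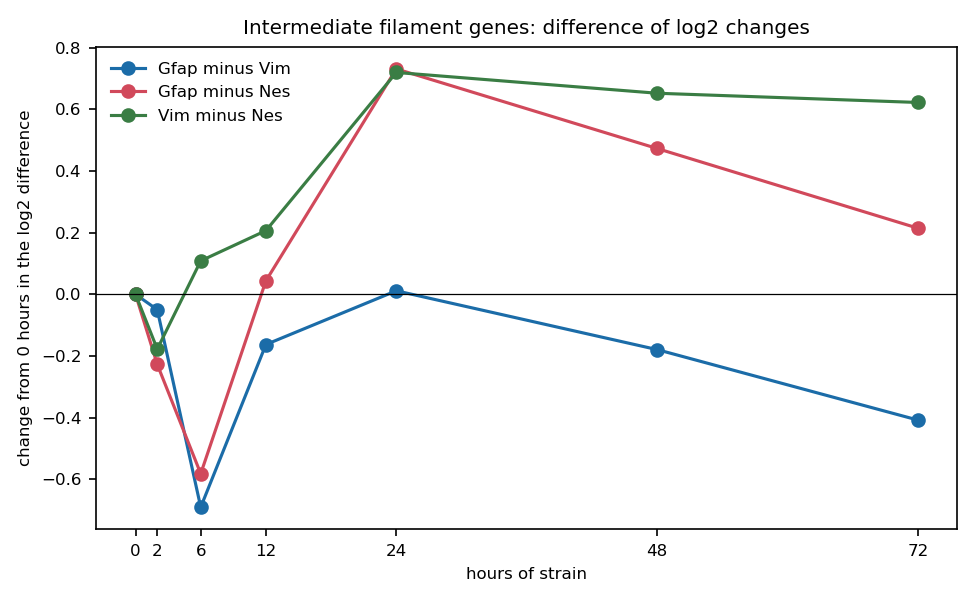
Difference between 2 filament genes in their log2 change from 0 hours, against hours of strain to scale, for Gfap minus Vim, Gfap minus Nes and Vim minus Nes (1 array per point, no error bars). The Vim minus Nes line stays above 0.6 from 24 hours, and both lines with Gfap reach their lowest point at 6 hours.

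The summed signals of neuron, muscle, fibroblast and microglial genes were also lower at 72 hours than at 0 hours, with different courses between. The summed signal of 21 neuron genes was 28016, 17198, 14175, 9767, 12669, 8531 and 10860.4 from 0 to 72 hours, with 5 of 18 tested genes lower and 0 higher by the line over hours. Of all tested probe sets, 14.1% were lower and 15.0% higher by this line, the share to set beside each count here. For 15 skeletal muscle genes, a tissue whose young fibres also carry nestin, the sum was 15774, 6020.3, 8498, 6117, 5349.8, 8833 and 3798, with 3 of 14 tested genes lower and 0 higher. The sum of 15 fibroblast and meningeal genes was 113404, 104156, 101570, 102925, 101701, 87955 and 95880, with 1 of 14 higher and 7 lower. That of 16 microglia and macrophage genes was 83778, 94514, 114799, 92288, 92300, 77179 and 53988, with 0 of 15 higher and 10 lower. The smooth test called 16 of the 18 neuron, 5 of the 14 muscle, 7 of the 14 fibroblast and 12 of the 15 microglial genes, against 39.5% of all tested probe sets. No listed gene had a signal of 0. The ratio of the 3' to the 5' control probe sets of actin, a sign of RNA quality, was 1.82, 1.53, 1.83, 1.95, 2.20, 2.54 and 2.62 over the 7 arrays, and that of Gapdh 1.09 to 1.17. Their part in the changes of Nes and Vim was not tested.

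Aqp4, S100b and Fabp7 were lowest at 6 hours and were back at 12 hours to 0.901 to 1.13 times their 0 hour signals. Aqp4 forms the water channel of astrocyte end feet. Its brightest probe set, 1372190_at, had 6218, 6769.9, 3174, 5972, 7682, 8337.8 and 7606 in order of time. The 6 hour signal was 0.469 of that at 2 hours, and the 12 hour signal was 1.88 times that at 6 hours. The 3 arrays from 24 hours on were the highest of the course.

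A second Aqp4 probe set followed the same course. Probe set 1368981_at gave 576, 661, 286, 650.4, 944, 816 and 873, and was at 0.497 of its 0 hour signal at 6 hours, the only marker call by the rule of size. That ratio is close to the limit, and after scaling to a common median 0 marker probe sets passed. The third, 1387397_at, is dim, with 172, 142, 113, 155, 184, 149 and 163, and was likewise lowest at 6 hours and highest at 24 hours. The line over hours was upward in all 3 but passed in none (0.64, 0.82 and 0.12 per 72 hours on the log2 scale, with limma adjusted p of 0.184, 0.14 and 0.741), nor did the smooth test call any (adjusted p = 0.149, 0.148 and 0.65). Without the 6 hour array these lines shrank to 0.35, 0.50 and 0.00549. All 3 read the same RNA on the same arrays and are not independent.

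S100b encodes a calcium binding protein abundant in astrocytes. Probe set 1386903_at had 2437, 2695, 1703, 2545, 3134, 2245 and 2989 from 0 to 72 hours. The lowest array was again that of 6 hours and the highest that of 24 hours, and the line was 0.27 (SE 0.25, adjusted p = 0.444), or 0.0986 without the 6 hour array. Fabp7 encodes the brain fatty acid binding protein of radial glia. Probe set 1370024_at had 13072, 13403, 8209.7, 12829, 15345, 10460.3 and 10806 over the same times. It shared the low at 6 hours and the high at 24 hours, but stayed below its 0 hour signal at 48 and 72 hours, and its line was -0.16 (SE 0.26, adjusted p = 0.676).

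**Figure D3:**
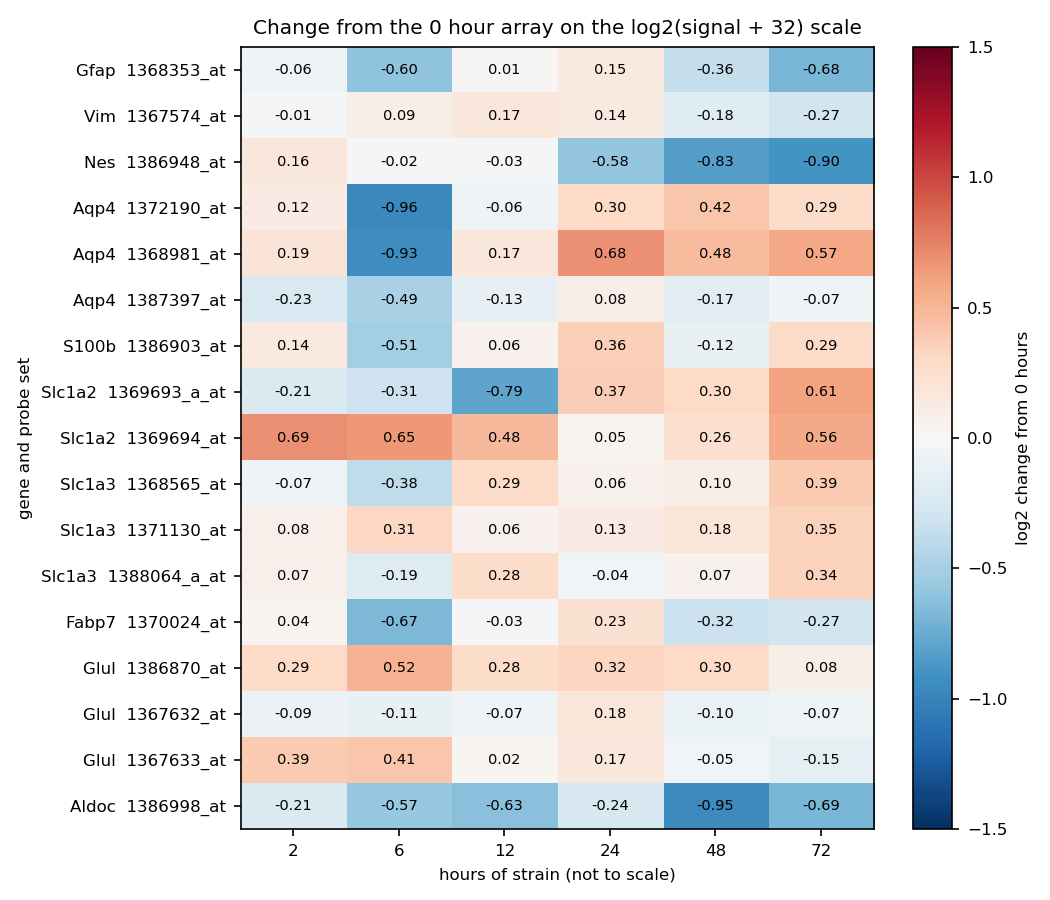
Change of each of the 17 probe sets from the 0 hour array on the log2(signal + 32) scale at the 6 later times, with blue for lower and red for higher and each value printed in its cell. The 6 hour column holds the deepest blue cells of Aqp4, S100b and Fabp7, whereas Nes and Aldoc are darkest at 48 and 72 hours.

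Of the glutamate genes none was called by the line over hours, and Glul was called by the smooth test in 2 of 3 probe sets. Slc1a3 encodes GLAST, the glutamate transporter of radial glia and young astrocytes. Its brightest probe set, 1368565_at, had 2364, 2251, 1803, 2899.7, 2472, 2543 and 3101 over the 7 times. It was lowest at 6 hours and highest at 72 hours, at 1.31 times the 0 hour signal, and its line of 0.43 (SE 0.19, 95% interval 0.00 to 0.85) missed the threshold (adjusted p = 0.117).

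The other Slc1a3 probe sets split at 6 hours. Probe set 1388064_a_at had 423, 446, 366, 519, 409.8, 445 and 544, with its low at 6 hours, while 1371130_at had 485, 514, 609, 507, 531, 552 and 625 and was above its neighbours at 6 hours. All 3 were highest at 72 hours, at 1.29 to 1.31 times their 0 hour signals. The adjusted p of the line was 0.294 for 1388064_a_at and 0.316 for 1371130_at. The probe sets of Slc1a3 thus had the same direction at 72 hours and opposite directions at 6 hours.

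Slc1a2 encodes GLT-1, the main glutamate transporter of the adult brain. Probe set 1369693_a_at had 59.2, 46.7, 41.5, 20.6, 86.1, 80.7 and 106.8 in order of time, and 1369694_at had 21.7, 54.4, 52.0, 42.9, 23.4, 32.1 and 47.3. The 2 probe sets did not share an order of times, and with mean signals under 100 neither entered the limma tests. Only 1369693_a_at enters a test at all, in the 2 pair comparisons that include Slc1a2. Their ratios to 0 hours, 1.80 and 2.18 at 72 hours, rest on small differences of signal.

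Glul encodes glutamine synthetase, the enzyme that turns glutamate into glutamine in astrocytes. Probe set 1386870_at had 7552, 9264, 10819, 9183, 9425, 9326 and 7999 from 0 to 72 hours, and 1367633_at had 4659.6, 6113, 6220.1, 4741, 5233, 4511 and 4199. Both were highest at 6 hours, at 1.43 and 1.33 times the 0 hour signal, and the smooth test called both (adjusted p = 0.0362 and 0.0377), though neither line passed (-0.11 and -0.39, adjusted p = 0.644 and 0.0951). The line of 1367633_at passed in 1 of 17 alternatives, without the 0 hour array (-0.52, adjusted p = 0.0205). Neither smooth call held with no filter on signal, under quantile normalization or without the 2, 6, 24 or 72 hour array. The third probe set, 1367632_at, had 8111, 7644, 7507, 7738, 9199, 7574 and 7739.7 and was not higher at 6 hours (smooth adjusted p = 0.998). The early high in Glul was therefore read by 2 of its 3 probe sets.

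Neither pair of glutamate genes differed past the threshold. Slc1a2 minus Slc1a3 gave 0.49 per 72 hours (SE 0.52, 95% interval -0.85 to 1.83, exact permutation p = 0.362, adjusted 0.452), and Glul minus Slc1a2 gave -1.03 (SE 0.48, -2.27 to 0.21, exact permutation p = 0.0903, adjusted 0.226). Both rest on the dim Slc1a2 signal, whose log ratios are not reliable, so neither value says how the genes differ.

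Aldoc encodes aldolase C, the brain form of this glycolytic enzyme, which in the adult is found in astrocytes. Probe set 1386998_at had 2483, 2137, 1660.1, 1592, 2098, 1269.6 and 1526 over the 7 arrays. The 0 hour array was the highest, and every later one was lower, with a partial return at 24 hours. The smooth test called the change (adjusted p = 0.0395), the line did not (-0.58, SE 0.23, adjusted p = 0.0883), and the line passed when the time was taken as log2(hours + 1) or as a rank. These were 2 of 17 alternatives, and in the others the adjusted p of the line reached 0.246. The smooth call was lost with no filter on signal and without the 0, 2, 12, 48 or 72 hour array.

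The low at 6 hours recurred across several of the markers. It was noticed in these data, comes from 1 array of 1 pool and cannot be tested, so it is given as a description. Of the 15 probe sets above the signal limit, 8 had their lowest signal of the course at 6 hours, where 17.8% of all 17709 did, and the 8 belong to 5 genes (Aqp4, S100b, Slc1a3, Fabp7 and Glul). Several of the 8 are repeat readings of Aqp4 or Slc1a3 and are not independent. Glul is among them only by 1367632_at, with 7507 at 6 hours against 7574 at 48 hours, and after median scaling this probe set was lowest at 0 hours. Of the 15, 6 had their highest signal at 24 hours, where 6.36% of all did. Measured as log2(signal + 32) at 6 hours minus the mean of 2 and 12 hours, the value was -1.11 and -0.995 for the brighter Aqp4 probe sets, -0.67 for Fabp7, -0.61 for S100b, -0.58 for Gfap and -0.495 for the brightest of Slc1a3. Vim at 0.00, Nes at -0.09 and Aldoc at -0.15 were near their neighbours, and 2 Glul probe sets and 1 of Slc1a3 were above them by 0.21 to 0.24. A value of -0.5 or lower was found in 5 of the 15, against 3.77% of all tested probe sets. The 6 hour array had the lowest median signal of the 7, 144.7, with the others at 146.4 to 162.4. Of the 15, 5 were also at -0.5 or lower after quantile normalization (3.42% of all) and after scaling to a common median (3.44%).

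**Figure D4:**
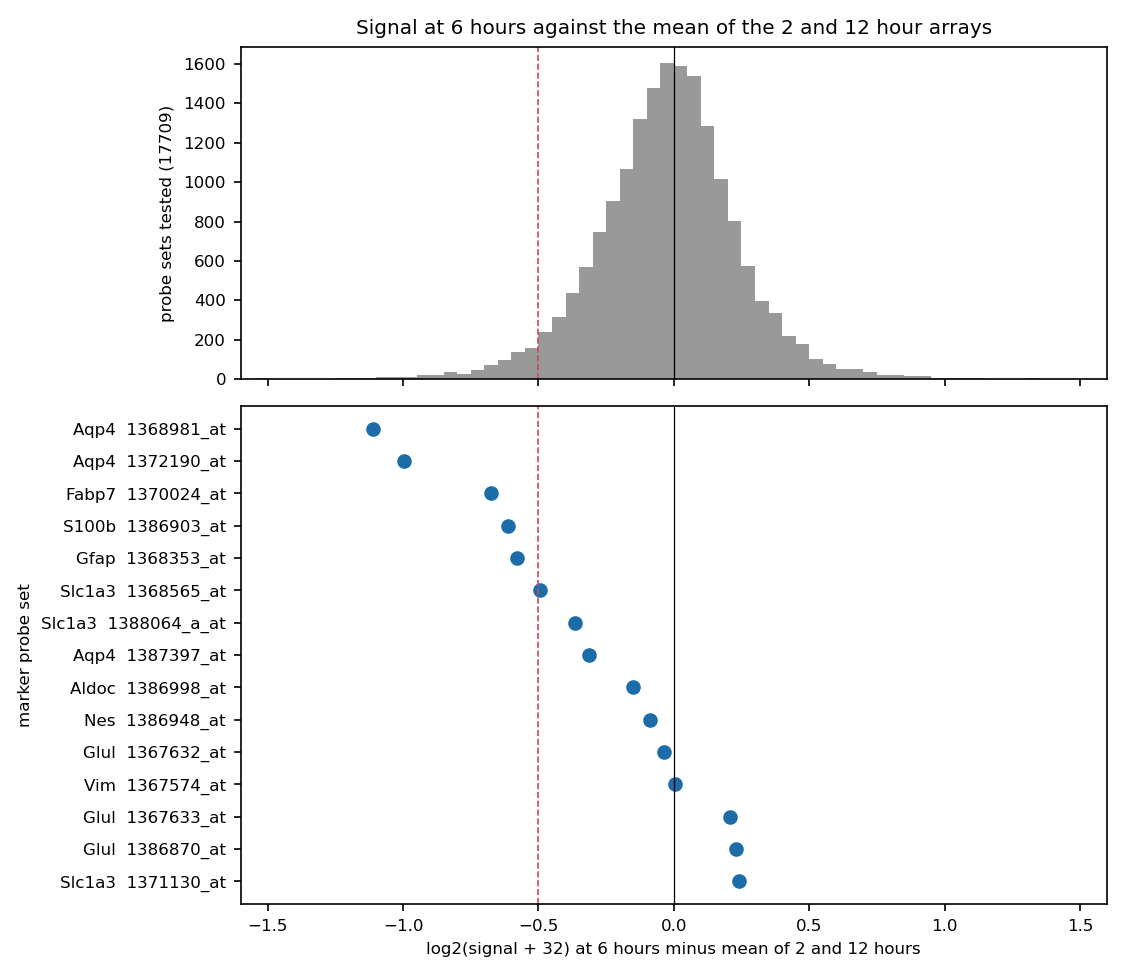
Log2(signal + 32) at 6 hours minus the mean of the 2 and 12 hour arrays, for all 17709 tested probe sets as a histogram (top, number of probe sets per bin of 0.05, x axis limited to 1.6 on either side) and for the 15 tested marker probe sets as points (bottom). The dashed line is at -0.5, and 5 of the 15 points lie to its left.

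The median of the other astrocyte genes was also below their neighbours at 6 hours, and those of the other lists ran from -0.28 to 0.42. The list held 32 further astrocyte genes, of which 27 were matched to a probe set and 20 tested, and its median at 6 hours against the neighbours was -0.35, beside -0.50 for the 9 tested markers and -0.02 for all tested probe sets. It held 5 genes at -0.5 or lower, named here after their values were seen: Mlc1 (-1.02), Gpr37l1 (-0.74), Ttyh1 (-0.74), Slc4a4 (-0.68) and Tril (-0.52). Of these Gpr37l1 was dim, with a signal of 82.0 at 6 hours, where values are imprecise. On the other side, Acsbg1 (0.53), Apoe (0.27), Id3 (0.16), Fgfr3 (0.11) and Aldh1l1 (0.00522) of this list were at or above their neighbours. Mlc1, a membrane protein of astrocyte end feet, had 613 at 6 hours, against 1226 at 2 hours and 1327 at 12 hours. Among 17 tested radial glia and progenitor genes, Cdh2 (-0.92), Pax6 (-0.78), Hey1 (-0.58) and Nkx6-1 (-0.56) were at -0.5 or lower, likewise named after their values were seen. Pax6 and Nkx6-1 were dim at 6 hours, with 101.8 and 107.8. The median of this list was -0.12. It was 0.04 for 25 genes of reactive astrocytes as described in mouse, 0.06 for 10 of the oligodendrocyte lineage, 0.27 for 18 of neurons, 0.32 for 15 of microglia and macrophages, -0.13 for 14 of fibroblasts and meninges, 0.42 for 14 of skeletal muscle, -0.28 for 4 of Schwann cells and neural crest and -0.05 for 4 of endothelium and pericytes. For glutamate handling it was -0.02 (17 genes) and for other filament genes -0.08 (8 genes). The summed signal of the 10 markers was 58432 at 6 hours, against 69084 at 2 hours and 70934 at 12 hours, although Vim and Glul in it were higher at 6 than at 2 hours. Sums above both neighbours were those of microglia (114799, against 94514 and 92288), reactive genes (81695, against 76066 and 73239), muscle (8498, against 6020 and 6117) and endothelium (2483, against 2198 and 2438). Those of the other astrocyte, the radial glia and progenitor, and the fibroblast lists were below both. The part of the other cells' signal in the 6 hour values was not tested.

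**Figure D5:**
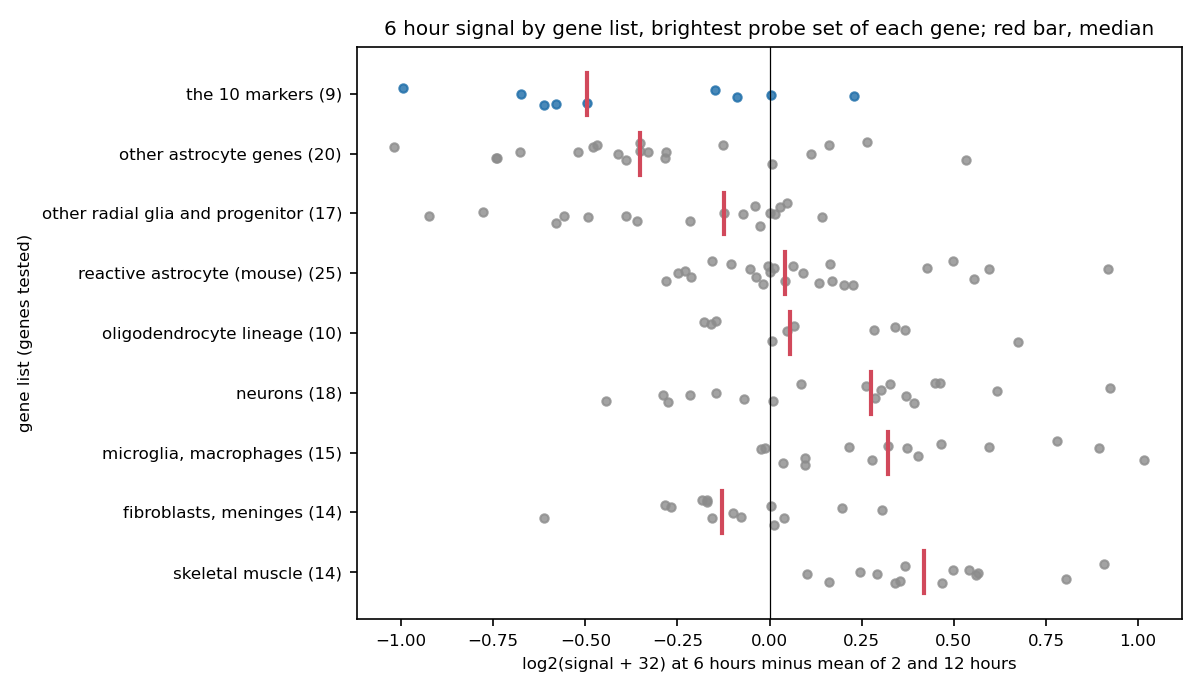
Log2(signal + 32) at 6 hours minus the mean of the 2 and 12 hour arrays for the brightest probe set of each tested gene, by gene list (points, vertical scatter added for legibility), with a red bar at the median of each list. The median of the 10 markers (9 tested) is -0.50 and that of the other astrocyte genes -0.35, with neurons at 0.27 and skeletal muscle at 0.42.

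The counts of the related gene lists over the whole course are to be read against the 15.0% of all tested probe sets that rose and the 14.1% that fell by the line over hours. Of the 20 tested astrocyte genes 2 rose and 2 fell, and the largest and smallest changes at 72 hours among them were Htra1, a secreted protease, at 3605 against 1786 at 0 hours (slope 1.03, limma adjusted p = 0.00141), and Gjb6, an astrocyte connexin, at 52.3 against 300.2 (-1.79, adjusted p = 0.0154). Of 17 radial glia and progenitor genes 3 rose and 2 fell. Tnc, the matrix protein tenascin-C, had 6406 at 72 hours against 2342 at 0 hours (1.28, adjusted p = 0.00139), and Lfng, a modifier of Notch, 100.9 against 170.3 (-0.84, adjusted p = 0.0294).

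Of 17 tested genes of glutamate and glutamine handling 3 rose and 6 fell, again beside 15.0% and 14.1% of all probe sets. Slc38a2, a transporter of neutral amino acids, had 9823 at 72 hours against 2863 at 0 hours (slope 1.67, limma adjusted p = 0.000739), and Slc17a6, the vesicular glutamate transporter of neurons, 256 against 1330.5 (-1.97, adjusted p = 0.0278). Of 25 reactive genes 6 rose and 4 fell, led by Serpina3n, a protease inhibitor, at 4357 against 88.3 (4.98, adjusted p = 1.7e-05), and, among those that fell, Psmb8, an immunoproteasome subunit, at 972 against 1396 (-0.82, adjusted p = 0.0185). Gfap and Vim, themselves usual reactive markers, were not called higher by the line over hours. Gfap was not higher at any time by the rule of size, which could not give such a call for the bright Vim. Of 8 other filament genes and partners 0 rose and 3 fell, among them Lmna, a nuclear lamin, at 3073 against 4178 (-0.64, adjusted p = 0.00727), and Nefl, the neurofilament light chain, at 261 against 791 (-1.49, adjusted p = 0.0202). Of the remaining lists, the oligodendrocyte lineage had 0 of 10 higher and 1 lower, Schwann cells and neural crest 0 and 1 of 4, and endothelium and pericytes 1 and 0 of 4.

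For the 3 markers that ranged most over the arrays, the genes with the most similar course were found by the distance of their log2 changes at the 6 later times. For Aqp4 1372190_at these were Plcd4 (distance 0.28), Rfx4 (0.41) and Igflr1 (0.42), of which Rfx4, a transcription factor, was the brightest, with 1135, 1336, 612, 1232, 1651, 1743 and 1576 from 0 to 72 hours. Igflr1 had a mean signal of only 35.8. For Nes they were Gmnn (0.22), Nrxn2 (0.24) and Ubl4a (0.25). Gmnn, the replication inhibitor geminin, had 747, 854, 753, 696, 511, 469.6 and 394, with the same step between 12 and 24 hours, and Nrxn2 had a mean signal of 22.7. For Slc1a2 they were Rassf1 (0.42), Map7 (0.46) and Phlpp1 (0.50), set against a signal near the floor.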

How the data were processed

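Total RNA from cultured E15 rat spinal cord cells, pooled from 5 animals at each of 7 times, was labelled and hybridised by the authors to 1 Affymetrix rat array per time. The deposited values are linear signal intensities per probe set, calculated by the authors in GCOS with MAS5.0 and scaled globally, and the trimmed mean of each array was 500.144 to 500.162. Scaling fixes the total, so a change is relative to the other probe sets, and between 42.5% and 44.3% of signals were under 100, where background subtraction leaves them imprecise. The precision is limited by the number of arrays, 1 per time. The authors also left out spots they could not interpret, a step that was not repeated.

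Of 31099 probe sets, 57 controls were removed. The platform annotation gave 1 symbol to 20826 of the rest, several to 436 and none to 9780. The 17709 probe sets whose signals averaged 100 or more were tested on log2(signal + 32) with the lmFit and eBayes functions (intensity trend on) of limma 3.58.1 in R 4.3.3, either for a line over hours, given per 72 hours, or by an F test of log2(hours + 1) and its square. P-values were adjusted by Benjamini-Hochberg over all of them at 0.05, and residual degrees of freedom were 5 and 4. The fits were tested on simulated data. Each listed gene was read from its brightest probe set, and lists are described by counts and medians with no test. Pair differences were computed in Python 3.11.15 (numpy 2.4.6, pandas 2.3.3, scipy 1.17.1). Promoters came from RefSeq (GRCr8) and matched all 10 genes.

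The markers, gene lists and tests were chosen with earlier results of these data known, and the measure at 6 hours was chosen after seeing the data. Named were all markers, the genes with the highest and lowest change at 72 hours among those called in each list (for neurons, microglia, fibroblasts, muscle and the smaller lists only counts are given), genes that check a label, and for 3 markers the 3 genes of closest course. Alternatives were other pseudocounts, filters, normalizations, forms of time and thresholds, a fit without intensity trend, an exact permutation test, and each array left out in turn.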

Additional observations from a re-analysis of the deposited data

How the results depend on the processing

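Nes was called lower over hours in all 17 alternatives. The number of marker probe sets called lower, 1 of 15, became 2 under quantile normalization (Nes and Vim), 2 with time as log2(hours + 1), 2 with time as a rank (Nes and Aldoc in both), and 1 to 3 when each array was left out in turn, with 3 without the 0 hour array (Nes, Vim and Glul 1367633_at) and 2 without the 6 hour array (Nes and Gfap). None was called higher in any of these. The number changed by the smooth test, 5, became 1 of 17 with no filter, 3 under quantile normalization and 1 to 4 with single arrays left out. By the rule of size, the number higher, 0, became 1 at a ratio of 1.5 with a difference of 100 (Aqp4 1368981_at) and 1 with no minimum difference (Slc1a2 1369694_at). The number lower, 1, became 6 at a ratio of 1.5 with a difference of 100, 0 at a ratio of 3, 2 with no minimum difference, 3 against the mean of the 0 and 2 hour arrays, 2 under quantile normalization and 0 after scaling to a common median. The cause of these shifts was not tested, beyond the change of threshold or of arrays itself.

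Gfap minus Vim, -0.15, lay between -0.34 and 0.0824 with single arrays left out, and was 0.0824 without the 72 hour array. Vim minus Nes, 0.76, was 0.81 under quantile normalization and passed there (exact permutation p = 0.00556, adjusted 0.0278). Without the 72 hour array Gfap minus Nes was 1.31 and Vim minus Nes 1.23. Apart from that sign and that call, 58 of 60 alternatives for pairs kept direction and side of the threshold. Of 254 alternatives for single slopes 239 did so, 6 moved past the threshold and 9 changed sign, all 9 in Glul. Glul 1386870_at, -0.11, became 0.029 under quantile normalization, 0.0742 with log2(hours + 1), 0.0172 with ranks and -0.27 to 0.13 with single arrays left out, positive without the 72 hour array. Glul 1367632_at, -0.02, became 0.11, 0.00969, 0.016 and -0.0459 to 0.033 in the same settings, positive without the 48 or the 72 hour array.

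At 6 hours, 5 of 15 probe sets were at least 0.5 below their neighbours with a pseudocount of 100 and with neighbours weighted by hours, and 6 with a pseudocount of 1 (5.34% of all tested). The number lowest at 6 hours, 8, was 9 under quantile normalization (15.3% of all) and 7 after median scaling (12.4%). No paired analysis was possible because each time has 1 array and the labels give no replicate numbers. With 1 array per time, a marker's value at a single time has no error of its own, and signals near the floor, such as those of Slc1a2, have no reliable ratio.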
